A study of Mus musculus with 4 samples.

Results

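Collagen transcripts were examined in the heart ventricles of mouse embryos that lacked HDAC2, a class I histone deacetylase, and of their wild-type littermates. The collagen genes were taken by name, as every probe set that names a single gene whose symbol is Col, a type number, a and a chain number. This gave 42 of the 18193 genes named on the array, with 82 of its 45037 probe sets, 64 control probe sets left out. The 42 genes were grouped by the kind of assembly their chains form: 8 fibrillar genes, 6 basement membrane genes, 7 genes known from cartilage and 21 of other types. The samples were ventricles at embryonic day 17.5, from a cross of C57BL/6 and SV129 mice, on 4 Affymetrix MOE430v2 arrays. Both wild-type arrays (WT) carried RNA from a pool of 2 animals, and both HDAC2-deficient arrays (KO) from a pool of 3. The sources used here do not say how the Hdac2 allele was made. No label says whether pools came from separate litters, so the spread between the pools at hand may rest partly on technical variation. Each p-value reflects that spread, drawn toward the spread of other probe sets.

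Collagens are trimers of chains wound into a triple helix. Types I, III and V form the striped fibrils that give tissue its tensile strength, and in the heart they are made mainly by fibroblasts. Type IV forms the sheet-like network of basement membranes around cardiomyocytes and vessels. Types II, IX, X and XI are best known from cartilage, although type XI chains also enter fibrils elsewhere. The remaining types coat fibrils (XII, XIV, XVI), form beaded filaments (VI), anchor or pave surfaces (VII, VIII), carry endostatin-like ends (XV, XVIII) or cross the cell membrane (XIII, XXIII).

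Every collagen transcript that passed the test was lower in KO, among them both chains of type I collagen and the α1 chain of type XI. Values are MAS5 signals, the array software's brightness estimate for a probe set. Differences are KO minus WT in log2 signal ± standard error with 2 arrays per group. The standard error is the moderated one of the limma fit, which draws each probe set's spread toward that of probe sets of like brightness. It is therefore not the spread of that probe set's own arrays alone, and the same holds for the p-values and intervals. A probe set was tested where MAS5 called it Present, meaning detected, on both arrays of at least 1 group. That held for 37 collagen probe sets of 23 genes, and 19 collagen genes had no tested probe set. In limma with Benjamini-Hochberg adjustment over all 19065 probe sets tested, 5 of the 37 were lower in KO at an adjusted p under 0.05, against 0.96% of all probe sets tested. The number higher was 0, against 0.383%. At an unadjusted p under 0.05, 12 collagen probe sets were lower and 0 higher, against 8.23% and 7.29% of all probe sets. The 5 belonged to 4 genes: Col1a1, Col1a2 (by 2 probe sets), Col11a1 and Col12a1. Col12a1 had no Present call in KO and entered the test through WT alone. Of the 32 collagen probe sets Present on all 4 arrays, 4 were lower in the same fit, beside 131 of 16420 such probe sets. The number higher was again 0 for collagen, beside 58 of the 16420.

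The direction was shared well beyond those 4 genes. The difference was below 0 in 34 of the 37 collagen probe sets, against 48.0% of all probe sets tested. Both KO signals lay below both WT signals in 23 of the 37, against 22.5% of all, and in 0 did both KO signals lie above, against 25.0% of all. The median difference of the 37 was -0.23, beside 0.014 over all probe sets tested. Several differences, those of the 5 basement membrane probe sets among them, were smaller than their standard error. Some genes hold several of the 37. By the brightest tested probe set, 21 of 23 genes were below 0, beside 44.3% of all genes. Since 4 of the 37 entered the test through WT alone and 1 through KO alone, the 32 detected on all 4 arrays were also counted: 30 were below 0, against 46.3% of such probe sets on the array, with a median of -0.20 beside 0.024. With 1 probe set per gene, the brightest tested, the median was -0.40 for 6 fibrillar genes, -1.25 for 2 cartilage genes, -0.15 for 12 genes of other types and -0.063 for 3 basement membrane genes. With the mean of each gene's probe sets the fibrillar median was -0.25 and that of other types -0.24. In tissue pools, fewer cells of a type and less RNA per cell cannot be told apart.

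**Figure D1:**
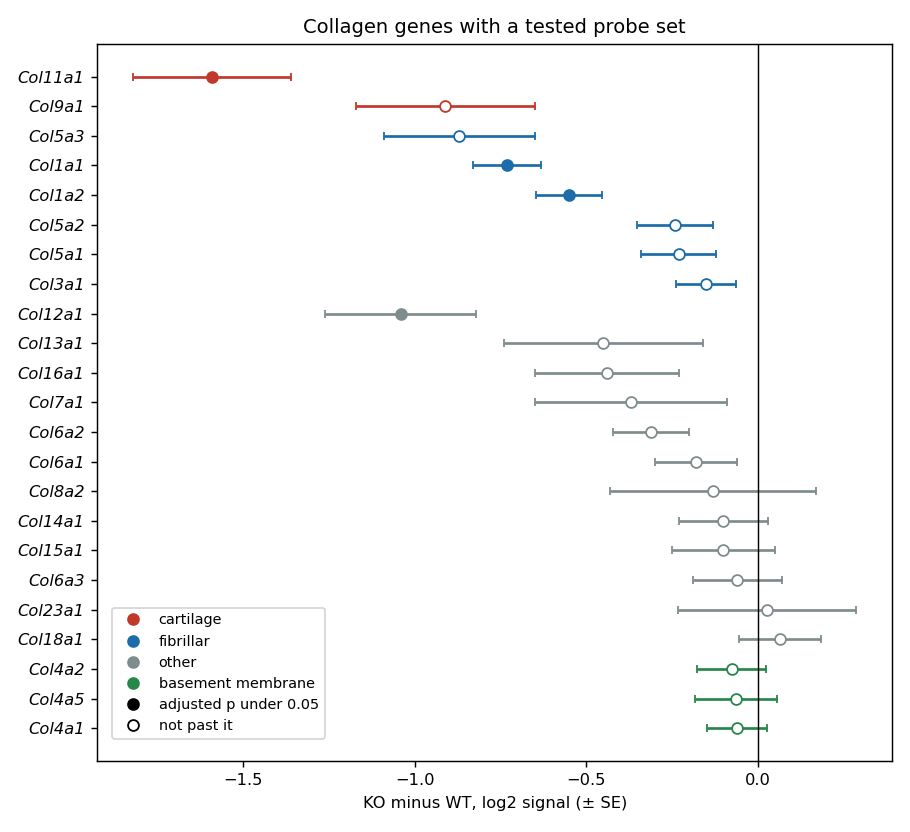
Difference between KO and WT in log2 signal (x axis, 2 arrays per group, bars are ± 1 moderated standard error) for the 23 collagen genes with a tested probe set, 1 probe set per gene, coloured by type. Filled points passed an adjusted p of 0.05. The 4 filled points are Col11a1, Col12a1, Col1a1 and Col1a2, and the 3 basement membrane genes lie within 0.1 of 0.

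The arrays matched their titles in the targeted gene. The brightest Hdac2 probe set read 1188.5 and 1421.1 on the WT arrays against 31.4 and 21.0 on the KO arrays, where it was not detected, although the KO samples' source field also holds the letters wt. Between 42.4% and 43.7% of probe sets were called Present per array. Correlations of log2 signal over the tested probe sets were 0.9833 between the WT arrays, 0.9806 between the KO arrays and 0.9647 to 0.9718 across genotypes. The ratio of the 3′ to the 5′ actin probe set, a measure of RNA integrity, was 1.85 and 2.32 in the WT pools against 2.75 and 2.42 in the KO pools. Xist, the RNA of the inactive X chromosome, read 80.5 and 90.1 on the WT arrays against 547.9 and 793.7 on the KO arrays with 1 probe set. With another it was Absent in WT, at 1.3 and 6.1, and Present in KO, at 413.7 and 797.1. The Y-linked Eif2s3y read 431.3 and 449.1 in the WT pools against 240.2 and 126.1 in the KO pools and was detected in all 4. The sex makeup of the pools therefore differed with genotype. The part of RNA integrity and of sex in the collagen differences was not tested.

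Markers of tissues next to the heart also differed between the genotypes. Of 12 tested skeletal muscle markers 10 were lower in KO and 0 higher at an adjusted p under 0.05, beside 0.815% and 0.481% of all genes by their brightest tested probe set. Of the 12, 8 entered the test through WT alone, so that the count describes the list and is no support of its own. The 10 were Tnnc2, Tnnt3, Mylpf, Myh3, Myh8, Myh1, Myl1, Neb, Klhl41 and Tnni2, and the summed signal of all 15 on the array was 13480 and 12585 on the WT arrays against 1323 and 1310 on the KO arrays. The fast skeletal troponin gene Tnnc2, for example, read 2417.7 and 2160.9 in the WT pools against 5.6 and 34.6 in the KO pools, where it was not detected. Of 4 tested bone markers 3 were lower: the matrix protein genes Ibsp (48.9 and 53.6 in WT, 8.7 and 17.0 in KO) and Dmp1 (56.8 and 64.1, 0.6 and 0.9) and the collagenase gene Mmp13 (79.1 and 105.3, 2.1 and 3.9). These 3 too entered the test through WT alone. The other tested gene, Sp7, was Present on all 4 arrays and differed by -0.20 ± 0.27, with groups that overlapped. The summed signal of 8 was 438 and 482 on the WT arrays against 179 and 198 on the KO arrays. All 3 of those bone genes had no Present call in KO. These tissues express type I, type XI and type XII collagen too, and the part of their RNA in the collagen differences was not tested. Markers of the heart's own cells did not pass the threshold in either direction. The 10 cardiac fibroblast markers on the array, 9 of them tested, summed to 7293 and 7033 in WT and to 6797 and 7515 in KO, so that the KO values spanned the WT values. Postn made up most of each sum, at 3816.8 and 3623.9 in WT and 3516.2 and 4083.1 in KO. Within that list the mesenchymal protease gene Fap differed by -0.83 ± 0.23 (adjusted p = 0.113), the growth factor receptor gene Pdgfra by 0.52 ± 0.17 (adjusted p = 0.162) and Tcf21, a transcription factor of the fibroblast lineage, by 0.036 ± 0.13. The 10 ventricular cardiomyocyte markers, all tested, summed to 109481 and 107338 in WT and to 104675 and 108627 in KO. At an unadjusted p under 0.05, 1 of the fibroblast markers was lower and 1 higher, and 1 of the cardiomyocyte markers was lower and 0 higher. Of the tested markers of epicardium and valve (9), endothelium (9) and pericytes and smooth muscle (8), 0 passed after adjustment, and 0, 1 and 1 were higher and 0 lower at an unadjusted p under 0.05, beside 7.14% lower and 8.42% higher of all genes. The smallest p in these lists belonged to Nkx2-5 (-0.30 ± 0.13) and Myh6 (-0.079 ± 0.081) in cardiomyocytes, Twist1 (-0.63 ± 0.34) and Tbx18 (0.26 ± 0.17) in epicardium and valve, Kdr (0.46 ± 0.16) and Vwf (-0.28 ± 0.18) in endothelium, and Acta2 (0.19 ± 0.082) and Notch3 (-0.24 ± 0.15) in pericytes and smooth muscle.

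Promoter sequence is shown for the 2 called genes that have an entry in the RefSeq promoter table (assembly GRCm38.p6), with Col3a1 as the type I chains' fibril partner whose difference was smaller. Each run is the 250 bases before the RefSeq start, on the plus strand, at chr6:4505368-4505617 for Col1a2, chr1:45311288-45311537 for Col3a1 and chr3:114030290-114030539 for Col11a1. Capitals mark a match on either strand to the letters CCAAT (the CCAAT box), to the letters TATAAA (the TATA box) or to the letters GGGCGG (the GC box).
Col1a2: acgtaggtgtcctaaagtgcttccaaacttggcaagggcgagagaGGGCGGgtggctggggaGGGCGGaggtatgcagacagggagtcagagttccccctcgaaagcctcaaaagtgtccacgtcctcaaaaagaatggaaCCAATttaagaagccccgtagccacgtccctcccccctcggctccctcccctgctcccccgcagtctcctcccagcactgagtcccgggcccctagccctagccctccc
Col3a1: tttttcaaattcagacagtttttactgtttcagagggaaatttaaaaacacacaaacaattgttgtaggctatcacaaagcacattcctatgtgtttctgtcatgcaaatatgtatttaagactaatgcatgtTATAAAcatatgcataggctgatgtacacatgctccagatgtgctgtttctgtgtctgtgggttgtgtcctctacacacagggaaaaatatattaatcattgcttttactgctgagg
Col11a1: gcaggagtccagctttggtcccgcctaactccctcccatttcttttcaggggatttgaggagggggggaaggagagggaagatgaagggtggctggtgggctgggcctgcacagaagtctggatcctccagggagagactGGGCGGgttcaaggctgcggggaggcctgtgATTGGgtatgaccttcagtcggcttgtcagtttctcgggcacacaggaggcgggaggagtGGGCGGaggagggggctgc
The Col1a2 window held a CCAAT 109 bases before the start and GGGCGG at 205 and 188 bases before it. The Col11a1 window held CCAAT on the minus strand (ATTGG as printed) 79 bases before the start, and GGGCGG at 110 and 19 bases. The Col3a1 window held TATAAA 117 bases before the start and none of the other motifs. No match of 1 of these motifs overlapped another in the 3 windows. Of 42 collagen genes 33 had a window, 36 windows in all, and CCAAT was in 36.1% of them, beside 33.8% of all 32851 windows of the same length. TATAAA was in 13.9% beside 12.4%, and GGGCGG in 58.3% beside 32.7%. These are matches of letters and not measured binding sites.

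The chains of type I collagen, the main fibril of the heart and of bone and tendon, were both lower in KO. Col1a1, which encodes the α1 chain, read 2165.3 and 2205.8 in the WT pools against 1329.6 and 1300.8 in the KO pools with its brighter probe set (1423669_at). Both KO signals lay below both WT signals by far more than the gap between the arrays of a group. The difference was -0.73 ± 0.10 (adjusted p = 0.00199), so KO stood at 60.2% of WT. The second Col1a1 probe set (1455494_at) read 686.1 and 655.1 on the WT arrays against 528.9 and 503.3 on the KO arrays. Its groups did not overlap either, at a smaller difference of -0.38 ± 0.12 that did not pass (adjusted p = 0.172).

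Col1a2, which encodes the α2 chain of the same trimer, read 2795.6 and 2999.3 in the WT pools against 1998.9 and 1960.2 in the KO pools with probe set 1450857_a_at, a difference of -0.55 ± 0.097 (adjusted p = 0.0118). A second probe set, 1423110_at, read 2061.0 and 2259.2 on the WT arrays against 1620.4 and 1455.0 on the KO arrays, -0.49 ± 0.11 (adjusted p = 0.0402). The groups did not overlap on either probe set, and KO stood at 68.4% and 71.2% of WT. Another, dim probe set (1446326_at) read 18.4 and 18.0 in the WT pools against 14.2 and 23.5 in the KO pools, with groups that overlapped and an interval of the difference from -1.02 to 1.03. The call of 1450857_a_at was lost without the second WT array (adjusted p = 0.102), and that of 1423110_at was lost without the first WT array (0.0942), the second WT array (0.231) or the second KO array (0.104). The Col1a1 call held without each array in turn.

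Col3a1, the type III chain that shares fibrils with type I in the heart, differed less. Its signal was 6554.9 and 6682.4 on the WT arrays against 5772.5 and 6191.4 on the KO arrays on probe set 1427883_a_at. The KO values lay below the WT values, but by -0.15 ± 0.087, which missed the threshold (adjusted p = 0.435; 95% interval -0.33 to 0.04). The other Col3a1 probe set differed by -0.028 ± 0.13, and its groups overlapped. Taken array by array, the log2 ratio of Col1a1 to Col3a1, set to a mean of 0 in WT, was -0.52 and -0.65 in KO and within 0.00053 of 0 in WT. The same ratio for Col1a2 against Col3a1 was -0.34 and -0.47 in KO and within 0.037 of 0 in WT. Col1a1 against Col1a2 gave -0.18 and -0.19 in KO and again stayed within 0.037 in WT. That last ratio depends on the probe sets taken. The dimmer Col1a1 probe set (1455494_at) differed by -0.38, less than Col1a2 on 1450857_a_at (-0.55) or 1423110_at (-0.49). Only the dim Col1a2 probe set 1446326_at (0.0054) differed less than it. The Col1a1 probe sets stood 0.35 apart, so which type I chain was lowered more cannot be told. With 2 arrays against 2, a two-sided exact permutation test cannot go below p = 0.333, and each of the 4 gene pairs compared as ratios, Col11a1 against Col1a1 included, gave that p = 0.333.

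Type V chains, which sit inside type I fibrils and set their diameter, had differences below 0 that did not pass. Col5a3 read 121.8 and 138.3 in the WT pools against 79.8 and 63.3 in the KO pools, where 1 of the 2 arrays had a Present call. The difference was -0.87 ± 0.22 and just missed the threshold (adjusted p = 0.0796). Col5a2 read 1452.1 and 1395.8 on the WT arrays against 1209.6 and 1194.1 on the KO arrays, -0.24 ± 0.11 (adjusted p = 0.29). Col5a1 read 1042.0 and 1069.9 in the WT pools against 892.2 and 905.9 in the KO pools, -0.23 ± 0.11 (adjusted p = 0.336). In all 3 genes the groups did not overlap on these probe sets. A second Col5a1 probe set (1416741_at) gave a like -0.24 ± 0.16 without overlap, while a further one of Col5a1 (1434479_at) differed by -0.011 ± 0.12 and the other of Col5a2 (1450625_at) by -0.065 ± 0.14. Of the 2 further fibrillar genes, known from developing cartilage and bone, neither was tested. Col24a1 read 34.3 and 17.8 on the WT arrays against 11.8 and 2.5 on the KO arrays, with 1 Present call on the first WT array. Col27a1 (1453191_at) read 258.0 and 261.1 in the WT pools against 172.0 and 176.4 in the KO pools, all called Absent, so these values give no measured fold.

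**Figure D2:**
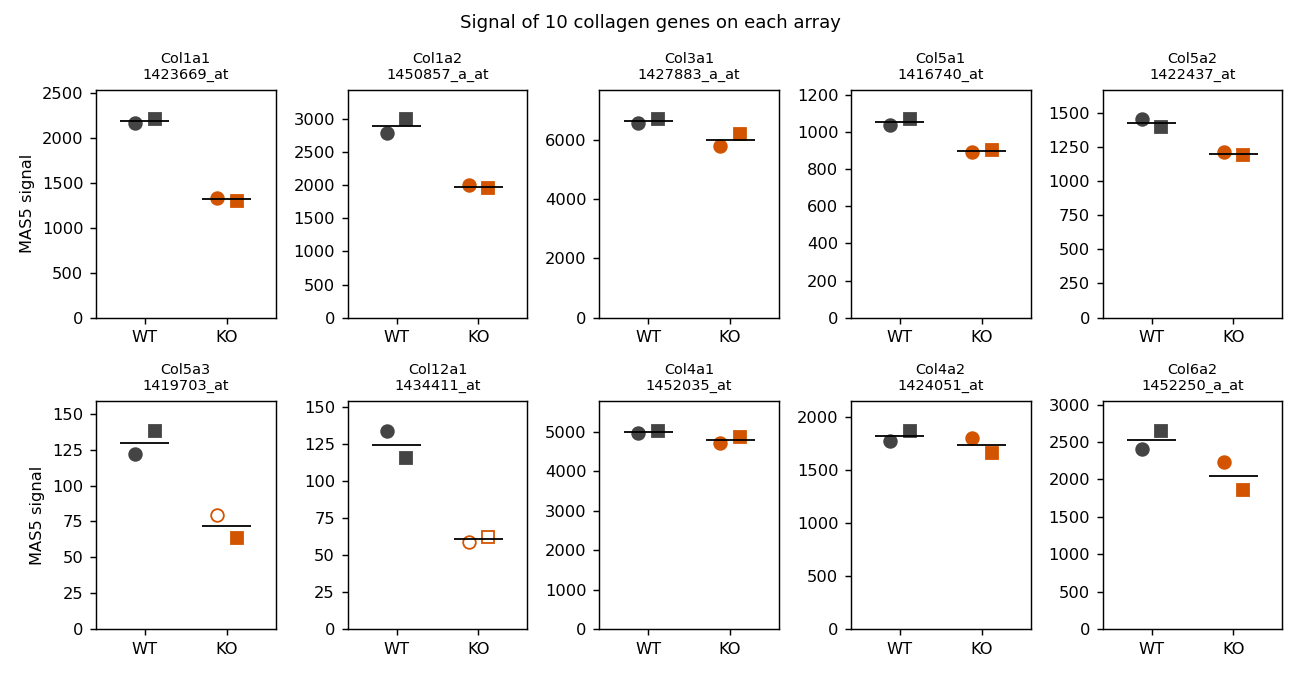
MAS5 signal (y axis, linear from 0, a scale of its own in each panel) of 10 collagen genes on the 2 WT and 2 KO arrays. Circles are replicate 1, squares replicate 2, open symbols are arrays without a Present call and lines are group means. Col1a1 reads 1329.6 and 1300.8 in KO below 2165.3 and 2205.8 in WT, while Col4a1 reads 4709.6 and 4883.7 beside 4962.7 and 5032.6.

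Among the collagens of cartilage, Col11a1 had the largest difference of all 37 tested collagen probe sets. Col11a1 encodes the α1 chain of type XI, which starts thin fibrils in cartilage and is also made in embryonic heart valves. It read 141.1 and 142.9 on the WT arrays against 44.3 and 50.3 on the KO arrays on probe set 1418599_at, all 4 called Present. The difference was -1.59 ± 0.23 (adjusted p = 0.0027), a signal 3.01-fold lower, and the call held without each array in turn. The second Col11a1 probe set (1449154_at) read 78.6 and 66.6 in the WT pools against 22.7 and 33.9 in the KO pools, -1.38 ± 0.32 (adjusted p = 0.0506). Both probe sets showed KO at about the same share of WT, 33.2% and 38.3%, and 1 of them fell just short of the threshold. Relative to Col1a1 on the same array, with a WT mean of 0, log2 Col11a1 was -0.96 and -0.75 in KO and within 0.0042 of 0 in WT.

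Col9a1, the α1 chain of the type IX collagen that decorates cartilage fibrils, was the other detected gene of this group. It read 125.3 and 105.3 on the WT arrays against 49.7 and 75.1 on the KO arrays on probe set 1428571_at, with no overlap, and differed by -0.91 ± 0.26 (adjusted p = 0.11). Its other probe set, called Absent on all 4 arrays, read 89.9 and 99.0 in the WT pools against 55.1 and 46.6 in the KO pools. The remaining 5 genes had no tested probe set. Col2a1, the main collagen of cartilage, read 103.7 and 59.8 on the WT arrays against 32.5 and 22.3 on the KO arrays, all Absent. Col9a3 (1460693_a_at) read 28.4, called Present, and 25.0, called Marginal, in WT and 7.1 and 5.0, both Absent, in KO. Col11a2 read 80.1 and 67.3 in the WT pools against 35.0 and 63.1 in the KO pools, Present on the first WT array alone. Col10a1, the collagen of hypertrophic cartilage, read 16.7 and 4.1 on the WT arrays against 2.6 and 3.1 on the KO arrays, and Col9a2 read from 2.0 to 4.0 throughout, all Absent. In these dim probe sets an order of WT above KO is one of undetected or barely detected signal, and no fold was taken from it.

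**Figure D3:**
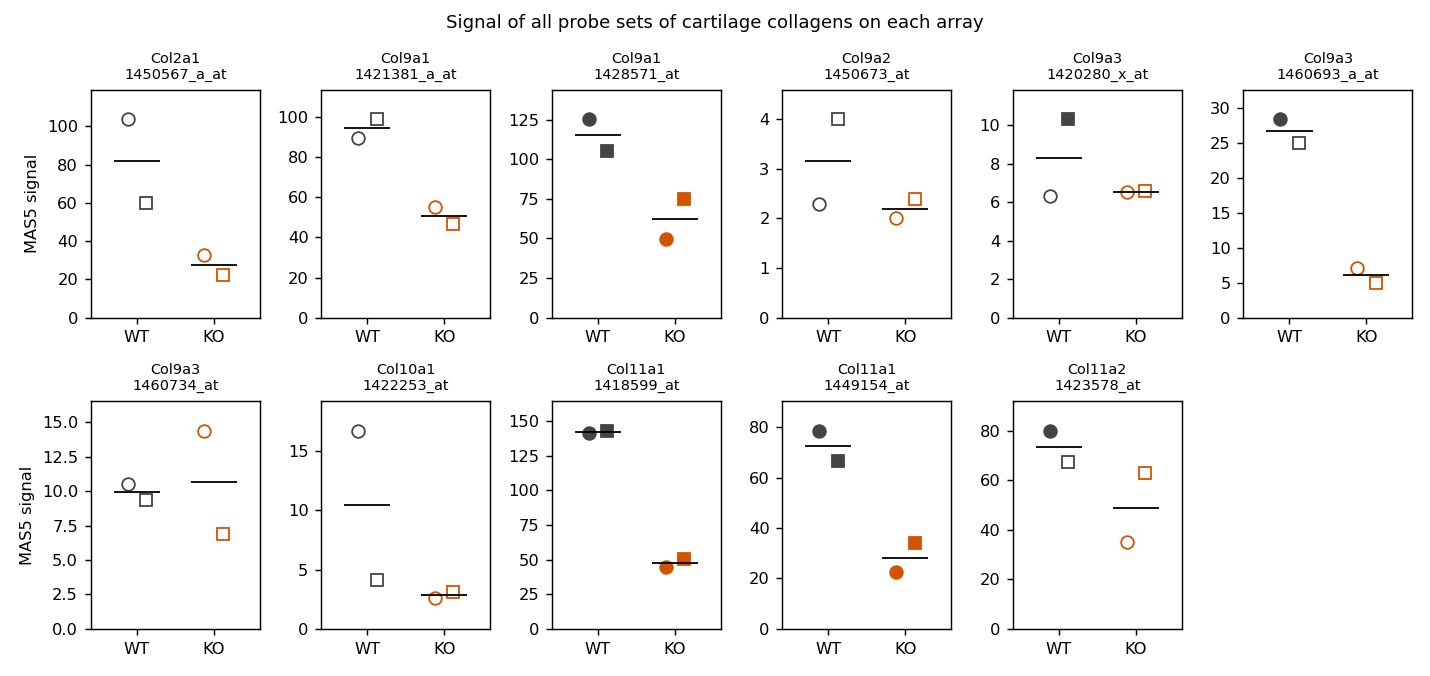
MAS5 signal (y axis, linear from 0, a scale of its own in each panel) of all 11 probe sets of the 7 cartilage collagen genes on the 2 WT and 2 KO arrays. Filled symbols are arrays with a Present call, circles are replicate 1, squares replicate 2 and lines are group means. Only the 2 Col11a1 probe sets and 1 of Col9a1 are filled on all 4 arrays.

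Markers of cartilage outside the collagen family mostly had no tested probe set. Of 15 on the array 6 were tested and 0 passed in either direction, with 1 lower and 0 higher at an unadjusted p under 0.05. The summed signal of the 15 was 651 and 604 in the WT pools against 552 and 562 in the KO pools. No Present call was made on any array for 7 of them: Matn1, Matn3, Matn4, Cnmd, Epyc, Ucma and Sox5. Hapln1, the link protein of cartilage and of the cardiac jelly, read 25.2 and 25.2 in WT. In KO it read 1.4 and 14.3 with no Present call, and it did not pass (adjusted p = 0.204). The 95% interval of its difference ran from -4.41 to -0.58. Snorc, a chondrocyte membrane proteoglycan, read 53.7 and 56.8 on the WT arrays against 35.1 and 44.8 on the KO arrays. It was not detected in KO (adjusted p = 0.456). Of the 6 tested markers 4 differed below 0 and 2 above, Sox6 by 0.24 ± 0.19 and Comp by 0.16 ± 0.27. In both of the latter the KO signals lay above the WT signals. The 3 bone genes that were lower and the summed skeletal muscle signal lay lower in KO beside Col11a1 and Col9a1, and their part in those differences was not tested. Of the 6 tendon markers 3 were tested and 0 passed in either direction, with 0 lower and 1 higher (Thbs4, 0.61 ± 0.22) at an unadjusted p under 0.05, and Egr1 had the next smallest p at 0.30 ± 0.17. The untested tendon gene Tnmd, Absent throughout, read 54.8 and 71.2 in the WT pools against 20.1 and 20.9 in the KO pools. The list summed to 474 and 591 in WT and 613 and 662 in KO. Most of that sum came from Thbs4 (139.4 and 197.4 in WT, 203.3 and 315.8 in KO) and Egr1 (218.8 and 269.5, 334.7 and 267.1). The sum therefore says little of the dimmer genes in the list.

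Basement membrane collagen had the median nearest 0 of the 4 types, and none of its chains passed the threshold. Col4a1, the α1 chain of the network laid around every cardiomyocyte and vessel, read 4962.7 and 5032.6 on the WT arrays against 4709.6 and 4883.7 on the KO arrays. The difference was -0.059 ± 0.087 (adjusted p = 0.786), with a 95% interval from -0.25 to 0.13. Col4a2, its partner in the same trimer, read 1774.6 and 1869.6 in the WT pools against 1804.7 and 1657.6 in the KO pools, with groups that overlapped. Its difference was -0.075 ± 0.10, with an interval from -0.30 to 0.15. Col4a5, an X-linked chain, differed by -0.063 ± 0.12 and its sign turned without the second WT array (0.00087) or the first KO array (0.043). The second probe sets of Col4a1 and Col4a5 gave -0.068 and -0.07. Col4a3, Col4a4 and Col4a6, the chains of kidney, inner ear and smooth muscle basement membranes, were not tested, with 1 Present call among the 4 arrays for 1 probe set of Col4a6 and 0 for the other 2 genes.

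Of the fibril-associated collagens, Col12a1 was lower. Type XII, a chain of tendon, muscle and bone surfaces that binds type I fibrils, read 134.1 and 115.4 on the WT arrays against 59.1 and 62.2 on the KO arrays on probe set 1434411_at. Neither KO array had a Present call, so the fitted difference of -1.04 ± 0.22 (adjusted p = 0.0382) is no measured fold. Its 95% interval ran from -1.52 to -0.56. The call was lost without any 1 of the 4 arrays, at an adjusted p of 0.247 without the first WT array, 0.0647 without the second WT array, 0.0516 without the first KO array and 0.0683 without the second KO array. It was also lost with quantile normalization (0.0636). The other 3 Col12a1 probe sets were Absent on every array. Among them, 1427391_a_at had the opposite order, at 55.7 and 18.1 on the WT arrays against 62.9 and 56.1 on the KO arrays. Col14a1, a related chain, read 568.5 and 613.9 in the WT pools against 553.3 and 547.5 in the KO pools, -0.10 ± 0.13, and its second detected probe set differed by -0.34 ± 0.17 (adjusted p = 0.374). Col16a1 read 201.6 and 187.9 on the WT arrays against 175.1 and 117.7 on the KO arrays, -0.44 ± 0.21 (adjusted p = 0.326), with a wider gap between its KO arrays than between its WT arrays. Col19a1, Col20a1 and Col22a1, the last a collagen of muscle-tendon junctions, had no Present call on any array.

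The beaded filament chains of type VI, which link cells to the fibrils around them, did not pass the threshold. Col6a2 read 2402.5 and 2651.5 in the WT pools against 2238.5 and 1854.9 in the KO pools on probe set 1452250_a_at, -0.31 ± 0.11 (adjusted p = 0.217). Its other probe set read 1933.7 and 1733.5 on the WT arrays against 1564.4 and 1094.2 on the KO arrays, -0.48 ± 0.15 (adjusted p = 0.132). On both probe sets the second KO array was the lowest of the 4. Col6a1 read 1300.2 and 1364.8 in the WT pools against 1291.2 and 1072.5 in the KO pools, -0.18 ± 0.12 (adjusted p = 0.487), again with the second KO array lowest. Col6a3 read 486.5 and 536.2 on the WT arrays against 460.6 and 521.8 on the KO arrays, -0.059 ± 0.13, and its groups overlapped. That sign turned without the second WT array (0.011) or the first KO array (0.031). Col6a4 and Col6a5 had no Present call.

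The other detected collagens showed no call in either direction. Col18a1, the multiplexin of vessel basement membranes, read 947.3 and 868.2 in the WT pools against 919.2 and 978.5 in the KO pools, 0.065 ± 0.12, while its second probe set differed by -0.23 ± 0.14, so its probe sets disagreed in sign. Col15a1, the other multiplexin, differed by -0.10 ± 0.15. Col7a1, the anchoring fibril chain, differed by -0.37 ± 0.28 and Col8a2, of short-chain networks, by -0.13 ± 0.30. Among membrane-spanning collagens, Col13a1 read 50.5 and 58.1 on the WT arrays against 42.7 and 36.6 on the KO arrays, -0.45 ± 0.29 (adjusted p = 0.476). Col23a1 read 55.2 and 70.0 in the WT pools against 62.2 and 64.6 in the KO pools, 0.028 ± 0.26, on 1 probe set. Its other tested probe set read 72.3 and 67.6 on the WT arrays against 54.3 and 43.3 on the KO arrays, -0.53 ± 0.27 (adjusted p = 0.367). These 2 probe sets of Col23a1 differed by 0.56 in log2 difference, the widest gap within a collagen gene, beside 0.55 between the bright and the dim probe sets of Col1a2. Col8a1, Col17a1, Col25a1 and Col26a1 were not tested.

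The genes that make, trim, crosslink and bind collagen did not pass the threshold. Of 48 listed genes 43 were on the array and 36 were tested: 0 were lower and 0 higher at an adjusted p under 0.05, and 9 were lower and 1 higher at an unadjusted p under 0.05, beside 7.14% and 8.42% of all genes. Of the 36 differences 23 were below 0, beside 44.3% of all genes by their brightest tested probe set. Among the enzymes and chaperones of chain folding, P4ha1, a prolyl 4-hydroxylase subunit, read 322.9 and 362.1 in the WT pools against 506.2 and 504.1 in the KO pools, 0.56 ± 0.14 (adjusted p = 0.0672). It was the 1 member higher at an unadjusted p under 0.05, and its groups did not overlap. Serpinh1, the collagen chaperone HSP47, read 3629.2 and 3329.5 on the WT arrays against 2829.7 and 2739.2 on the KO arrays, -0.32 ± 0.095 (adjusted p = 0.128). Pcolce, which speeds the removal of the type I propeptide, read 2262.4 and 2075.4 in the WT pools against 1769.4 and 1736.2 in the KO pools, -0.31 ± 0.10 (adjusted p = 0.174). The groups of both genes were apart.

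Among the genes of fibril assembly, Bgn, the small proteoglycan biglycan, read 1090.8 and 1235.5 on the WT arrays against 906.9 and 598.6 on the KO arrays, -0.66 ± 0.16 (adjusted p = 0.0737). Lox, the lysyl oxidase that crosslinks fibrils, read 398.2 and 379.2 in the WT pools against 303.1 and 260.9 in the KO pools, -0.47 ± 0.15 (adjusted p = 0.155). In both genes the KO arrays lay below the WT arrays. Propeptide removal had a second tested member of smallest p in Adamts3, a procollagen N-proteinase, at -0.13 ± 0.21 (adjusted p = 0.802). Of the receptors, the collagen-binding kinase Ddr1 differed by -0.25 ± 0.10 (adjusted p = 0.263) and the uptake receptor Mrc2 by -0.38 ± 0.21 (adjusted p = 0.403), with 0 of 5 tested receptors past the threshold.

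**Figure D4:**
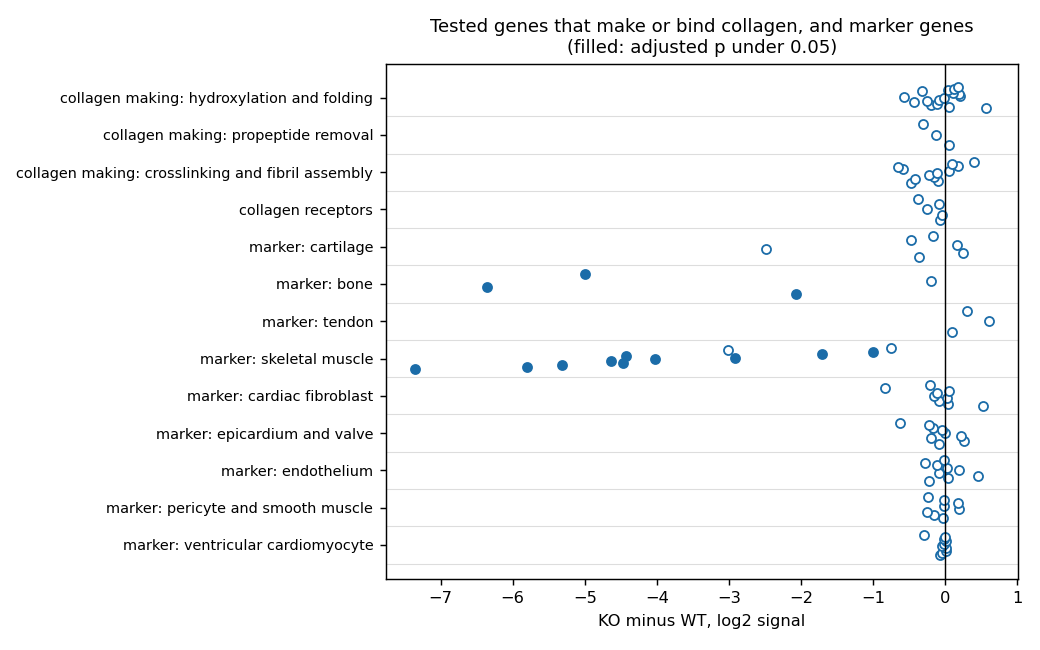
Difference between KO and WT in log2 signal (x axis) of each tested gene in 4 lists of collagen making and binding and in 9 lists of cell type markers, 1 point per gene, brightest tested probe set. Filled points passed an adjusted p of 0.05. All filled points are in the skeletal muscle list (10 genes) and the bone list (3 genes); where KO had no Present call the fitted difference is no measured fold.

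The 5 collagen calls depended on how the variance was modelled and on which probe sets were tested. The count of lower collagen probe sets was 0 without the detection filter, 0 without the variance trend and 0 in the deposited signal log ratios, at 18, 11 and 11 lower at an unadjusted p under 0.05. In those 3 settings the adjusted p of Col1a1 was 0.0618, 0.178 and 0.356 and that of Col11a1 0.115, 0.0523 and 0.356.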

How the data were processed

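RNA from 4 pools was hybridised to 1-colour arrays. The deposited signal is an intensity, for which the submitters' processing notes name MAS5 as the authors' tool (version not given in the sources used here); per the file headers each comes with a detection p-value and call, and with a log2 signal log ratio against a baseline array that is not named. All 4 arrays had the same 2%-trimmed mean signal, 150.0. Of the other 45037 probe sets, 34945 name 1 gene in the platform annotation, and collagen genes were taken from these. The 4 signals of 0 were set to 0.1. A model of log2 signal on genotype was fitted in limma 3.58.1 (lmFit, eBayes with a variance trend, R 4.3.3) over the 19065 probe sets with Present calls on both arrays of WT or of KO, with two-sided p-values adjusted by Benjamini-Hochberg and a threshold of 0.05. Where a group had no Present call, the fitted difference is no measured fold. Intervals cover 95%.

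Each gene is shown by its brightest tested probe set. Values on every array are given for members past the threshold, Col1a1, Col1a2, Col3a1, the 2 brightest members of each other type, tested cartilage members and members whose probe sets differ by over 0.5. From each other list the genes past the threshold are named or, where there are none, the 2 with the smallest p. Further genes, and the gene pairs for the ratios within an array, were chosen after their values were seen. Collagen members and gene lists were chosen with earlier results of these data known. Precision is limited by the number of arrays.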

Additional observations from a re-analysis of the deposited data

How the results depend on the processing

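Of 37 collagen probe sets, 5 were lower in KO. The count was 0 without the detection filter, 0 without the variance trend and 0 with signal log ratios, where 30, 19 and 0 probe sets of the whole array were lower. Pools carry the same numbers in WT and KO. The correlation of same-number deviations over probe sets was -0.01, which cannot show whether the numbers pair pools by litter or batch. With the replicate number as a block 9 were lower, all 5 kept, as the array-wide count went from 183 to 450. Leaving out 1 array in turn gave 2 (without the second WT array; array-wide 169), 3 (the first WT array; 110), 4 (the second KO array; 182) and 7 (the first KO array; 428), with a lone array assumed to vary like the others. The number higher was 0 in all 15 alternatives in limma, also at an unadjusted p under 0.05. The fibrillar median moved to -0.25 with the mean of a gene's probe sets. Without 1 array the medians ranged from -0.43 to -0.39 (fibrillar), -0.11 to -0.033 (basement membrane) and -0.25 to -0.11 (other). Signs turned in 5 genes that were not called: Col8a2 under quantile normalization (0.016), Col18a1 (-0.081) and Col23a1 (-0.25) with the mean of probe sets, and Col23a1 on centring (-0.0029). Without 1 array they spanned -0.17 to 0.043 (Col4a5), -0.15 to 0.031 (Col6a3), -0.41 to 0.14 (Col8a2) and -0.14 to 0.20 (Col23a1). Quantile normalization also ended the Col12a1 call, and the mean of probe sets the Col1a2 call (0.229). The cause was not tested.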
